A study of Homo sapiens with 9 samples.

Results

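Transcripts of 10 chemokine genes were followed in human MDA-MB-231 cells, an established line of triple-negative breast cancer, after transfection with siRNA against SKP2. The genes were CXCL1, CXCL2, CXCL3, CXCL5, CXCL8, CXCL16, CCL2, CCL5, CCL20 and CX3CL1, taken by symbol from the 58395 gene identifiers of the count files. All 10 were found, and 9 of them passed the filter on low counts and were tested. The cells were grown in DMEM with serum and transfected in suspension as they were plated (reverse transfection), and RNA was taken 96 h later. There were 3 groups of 3 libraries: a nontargeting control siRNA (NC), a first SKP2 siRNA (SKP2-1) and a second SKP2 siRNA (SKP2-2). The series title and the sample labels give SKP2 as the target, while the design text gives ZIP7. All groups come from 1 cell line, and the labels do not say that replicates were separate cultures, so p-values measure the spread between these libraries, which may be technical.

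Chemokines are small secreted proteins that attract leukocytes through G protein-coupled receptors, and they are named by the spacing of their first cysteines (CC, CXC or CX3C). CXCL1, CXCL2, CXCL3, CXCL5 and CXCL8 carry the Glu-Leu-Arg (ELR) motif before the CXC cysteines, bind CXCR2 (CXCL8 also binds CXCR1), draw neutrophils and promote angiogenesis. CXCL16 and CX3CL1 are made as membrane-anchored proteins that proteases can release, and CCL2, CCL5 and CCL20 are secreted ligands of monocytes, T cells and CCR6-bearing cells. Many of these genes are switched on by NF-kB downstream of interleukin 1 and TNF, and their short-lived mRNAs are degraded through AU-rich elements. MDA-MB-231 is a mesenchymal-like line known for secretion of CXCL8 and CXCL1.

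The promoters of 6 genes are shown, those with a window in the RefSeq sequence set used here, and 5 of them belong to 1 cluster on chromosome 4. The windows are the 140 bases before the RefSeq transcription start, on GRCh38.p14, 5′ to 3′ on the gene's strand. Capitals mark matches, on either strand, to the kappaB letters GGAATTTCC or its wider form (3 Gs, 2 bases of any kind, then TTTCC), or to the AP-1 letters TGACTCA.
CXCL1, chr4:73869253-73869392, plus strand: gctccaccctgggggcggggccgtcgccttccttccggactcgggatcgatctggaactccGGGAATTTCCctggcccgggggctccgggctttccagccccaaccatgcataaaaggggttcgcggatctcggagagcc
CXCL2, chr4:74099196-74099335, minus strand: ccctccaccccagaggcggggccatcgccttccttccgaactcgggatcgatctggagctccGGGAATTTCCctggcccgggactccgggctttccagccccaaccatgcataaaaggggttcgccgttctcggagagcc
CXCL3, chr4:74038690-74038829, minus strand: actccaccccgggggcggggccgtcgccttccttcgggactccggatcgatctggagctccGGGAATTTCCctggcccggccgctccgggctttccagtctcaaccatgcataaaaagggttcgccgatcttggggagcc
CXCL5, chr4:73998678-73998817, minus strand: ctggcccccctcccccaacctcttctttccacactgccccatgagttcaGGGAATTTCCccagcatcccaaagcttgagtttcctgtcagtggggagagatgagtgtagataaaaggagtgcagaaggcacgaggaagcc
CXCL8, chr4:73740429-73740568, plus strand: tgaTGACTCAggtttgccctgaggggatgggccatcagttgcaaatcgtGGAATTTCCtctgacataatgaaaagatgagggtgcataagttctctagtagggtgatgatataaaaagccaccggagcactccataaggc
CCL20, chr2:227813702-227813841, plus strand: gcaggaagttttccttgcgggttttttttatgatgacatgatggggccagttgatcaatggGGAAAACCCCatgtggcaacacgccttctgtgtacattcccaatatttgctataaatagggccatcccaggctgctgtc

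The letters GGAATTTCC stood in the promoter of all 5 ELR chemokine genes, beginning 78 bases before the start in CXCL1 and CXCL3, 77 in CXCL2, 90 in CXCL5 and 91 in CXCL8. Of all 35116 RefSeq promoter windows of 300 bases, 0.461% held them. The wider form, which overlaps the first motif, was found in 1.91% of all windows, in 4 of the ELR genes (not CXCL8) and, on the other strand, in CCL20. TGACTCA (4.95% of windows) was found in CXCL8, and TATAAA (11.5% of windows) in CXCL8 and CCL20. The CXCL1 and CXCL2 windows were 91.5% identical in a global alignment, CXCL1 and CXCL3 90.7%, and CXCL2 and CXCL3 88.0%, whereas CXCL8 and CXCL1 shared 45.8%. Windows of CXCL16, CCL2, CCL5 and CX3CL1 were not analysed here. A match describes the letters only.

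The 3′ UTRs of the same genes differed in AU-rich pentamers, counted in 1 GENCODE 29 transcript a gene. The pentamer ATTTA occurred 11 times in CXCL5, 10 in CXCL2, 9 in CXCL8, 7 in CXCL3 and 5 in CXCL1. CCL20 held 3 copies, CX3CL1 2, CXCL16 and CCL2 1 each, and CCL5 0. At least 5 copies were present in 24.7% of 18710 protein-coding genes, so the ELR genes were the 5 members on that side. These copies are not scaled by length, and the UTRs ran from 376 bases (CCL2) to 2009 (CX3CL1). Per kb CXCL2 held most (13.87), and CCL20 (6.65) stood above CXCL5 (5.51, over 1995 bases). The median over all genes was 1.4 per kb. The split by copies therefore does not hold per kb. The longer TTATTTATT, in 7.4% of all genes, stood in CXCL1 (3 copies), CXCL2 (5), CXCL3 (1), CXCL8 (1) and CX3CL1 (1).

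The libraries held 35476410 to 49855113 gene counts. SKP2 (62.1 ± 3.99 CPM in NC, SD, n = 3) fell to 3.58 ± 0.307 CPM with SKP2-1 and 5.96 ± 0.236 CPM with SKP2-2, which was 17.3 and 10.4 times lower (edgeR adjusted p = 8.64e-12 and 5.35e-12). CPM are counts scaled by normalized library size. NC and SKP2-2 libraries were less alike than SKP2-1 libraries, with a chi-square per degree of freedom between replicates of 7.92 to 51.1, 8.87 to 26.93 and 2.48 to 2.57. On the third principal component (11.6% of variance) NC replicate 1 (-30.3) and SKP2-2 replicate 3 (-14.6) lay lowest, so results were also computed without both. NC replicate 3 (21.2) and SKP2-2 replicate 1 (21.7) lay at the other end, and the SKP2-1 libraries between them (-3.5 to -1.1). Of 8 mesenchymal markers 7 had a mean of at least 1 CPM (VIM 2830 CPM), and TWIST1 had 0 counts in every library. Of 12 luminal markers 9 had at least 1 CPM, among them KRT8 (356 CPM), KRT18 (261), KRT19 (254), ERBB2 (88.9) and XBP1 (77), while the hormone receptor genes ESR1 (1 to 12 counts) and PGR (5 to 17 counts) were near 0.

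CXCL8 and CXCL1 made up most of the CPM of the 10 genes in every library. Together they held 93% to 93.4% of the summed CPM of the 10 genes in NC, 88.1% to 88.8% with SKP2-1 and 82.5% to 85.1% with SKP2-2. The sum itself was 558.5 to 607.8 CPM in the NC libraries, 634.2 to 650.4 with SKP2-1 and 230.6 to 249.5 with SKP2-2. Levels between genes are compared per kb of annotated exon. On that scale the order in NC was CXCL8 (178 CPM per kb), CXCL1 (107), CXCL2 (11.6), CXCL3 (4.47), CX3CL1 (1.26), CXCL16 (0.67), CXCL5 (0.55), CCL20 (0.534), CCL5 (0.101) and CCL2 (0.0284). In NC the libraries of CXCL5 and CCL20 overlapped, and no other neighbours in the order did. With SKP2-1, CX3CL1 (5.78 CPM per kb) overlapped CXCL3 (6.42), and CCL20 (0.961) overlapped CXCL16 (0.957). CXCL5 was eighth in the order with both SKP2 siRNAs, at 0.738 CPM per kb with SKP2-1 and 0.12 with SKP2-2, where it overlapped CCL5 (0.0973).

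**Figure D1:**
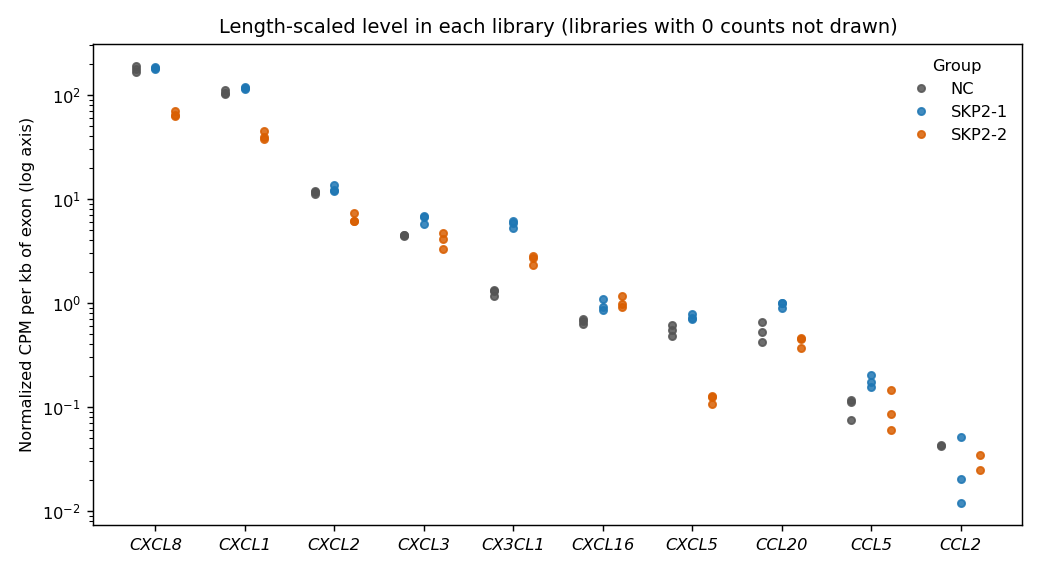
Normalized CPM per kb of exon on a log axis for each chemokine gene, 1 point a library, coloured by group, in the order of the NC means. CXCL8 and CXCL1 lie above all other genes in each group, and CCL2, with libraries at 0 counts left out, lies lowest.

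The comparison of SKP2-1 with NC asks which chemokine transcripts differ between cells given the first SKP2 siRNA and control cells. CX3CL1 rose 4.59-fold, CCL20 1.78-fold, CXCL3 1.44-fold, CXCL16 1.43-fold and CXCL5 1.35-fold, while CXCL8, the most abundant, was 1.03-fold of control and did not pass. Thus 5 of the 9 tested genes were called, where 45.5% of all 16575 genes were called in either direction. All 5 were higher, against 25.0% of all genes. In edgeR 0 were called lower, against 20.5% of all genes, with 0 at an unadjusted p under 0.05 and 0 by DESeq2. The median log2 fold change of the tested genes was 0.52 (0.48 without the barely read CCL5), beside 0.02 for all genes.

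Against NC, SKP2-2 gave another pattern. The ELR chemokine genes CXCL5, CXCL8, CXCL1 and CXCL2 fell, to levels 4.53, 2.69, 2.61 and 1.78 times lower, and the membrane-anchored CX3CL1 (2.07-fold) and CXCL16 (1.53-fold) rose. Of the 9 tested genes 6 were called, where 49.4% of all genes were called in either direction. Among them 4 were lower, against 24.1% of all genes, and 2 higher, against 25.2%. The median log2 fold change was -0.33 (-0.58 without the barely read CCL5), beside 0.03 for all genes. Both siRNAs were set against the same NC libraries.

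Between the siRNAs, 7 of the 9 tested genes were called, where 50.5% of all genes were called in either direction. All 7 were lower with SKP2-2, against 25.3% of all genes, and in edgeR 0 were higher (25.2% of all genes), with 0 at an unadjusted p under 0.05 and 0 by DESeq2. The 7 were CXCL1, CXCL2, CXCL3, CXCL5, CXCL8, CCL20 and CX3CL1. The median log2 difference was -1.15, beside 0.03 for all genes.

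**Figure D2:**
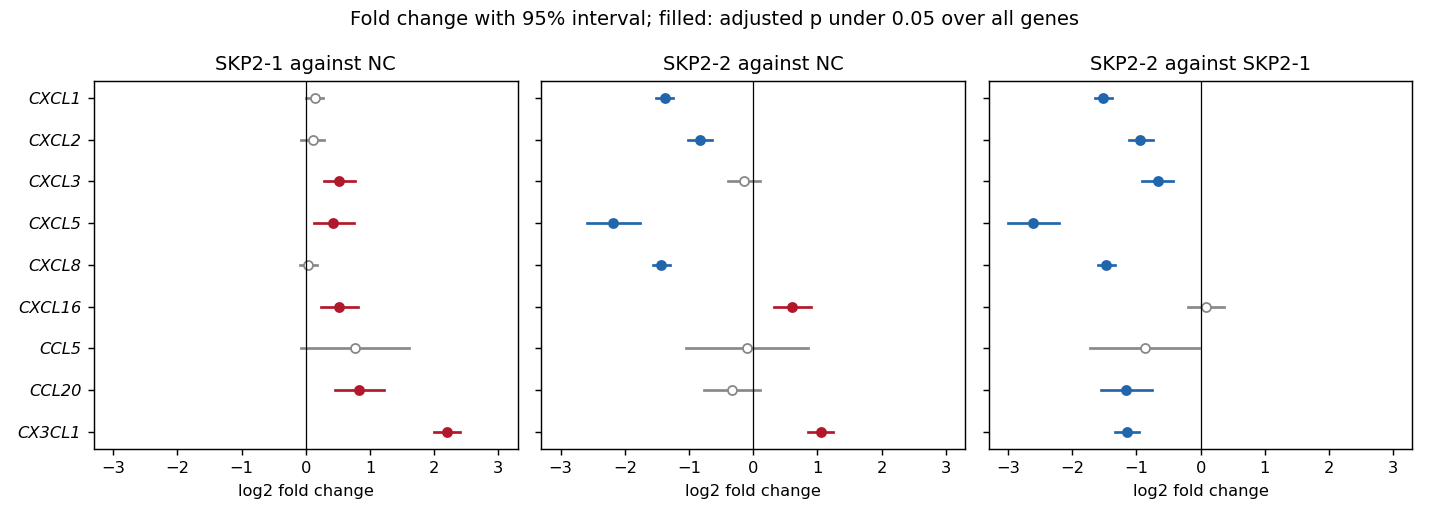
Log2 fold change (x axis) with its 95% interval for the 9 tested genes in the 3 comparisons. Filled points passed the threshold of 0.05: with SKP2-1 they lie to the right of 0, and with SKP2-2 CXCL1, CXCL2, CXCL5 and CXCL8 lie to the left, and CXCL16 and CX3CL1 to the right.

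CXCL8 (ENSG00000169429, chromosome 4, 73740506 to 73743716, GENCODE 29 on GRCh38), encoding interleukin 8, was read with 13327, 18158 and 20556 counts in NC replicates 1 to 3. That was 375, 401 and 435 CPM in NC, 422, 414 and 408 CPM with SKP2-1, and 160, 147 and 142 CPM with SKP2-2. All SKP2-2 libraries lay under all others, and the SKP2-1 libraries lay within the NC range. With SKP2-2 the log2 fold change was -1.43 (SE 0.06, adjusted p = 8.88e-10). The log2 fold change with SKP2-1 was 0.04 (95% interval -0.09 to 0.17, adjusted p = 0.625), and it turned to -0.02 without NC replicate 1. Between the siRNAs the log2 difference was -1.47 (SE 0.06, adjusted p = 5.74e-10). In bulk RNA, fewer cells transcribing a gene and less RNA per cell cannot be told apart.

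CXCL1 (ENSG00000163739, chromosome 4, 73869393 to 73871242), a neutrophil attractant first named for melanoma growth stimulation, was at 145, 137 and 133 CPM in NC. With SKP2-1 it was at 155, 149 and 151 CPM, and with SKP2-2 at 51.2, 49.2 and 58.7 CPM. The SKP2-2 libraries lay far under both other groups, and the SKP2-1 libraries just above NC without overlap. CXCL1 fell with SKP2-2 by 1.38 on the log2 scale (SE 0.06, adjusted p = 1.71e-09). With SKP2-1 it did not pass (0.14, SE 0.06, adjusted p = 0.0877). It did pass without NC replicate 1 (0.16, adjusted p = 0.0354), without SKP2-2 replicate 3 (0.14, 0.0333) and without both (0.16, 0.00269), as well as with no filter on low counts (0.14, 0.0266). The adjusted p ranged from 0.00269 to 0.394 over all alternatives.

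CXCL2 (ENSG00000081041, chromosome 4, 74097035 to 74099293), a close paralog of CXCL1, followed the same order at a lower level. Its level was 16.8, 18 and 17.5 CPM in NC, 20.4, 17.8 and 18.2 CPM with SKP2-1, and 9.25, 9.11 and 11.1 CPM with SKP2-2. SKP2-2 libraries were lower than all others, while SKP2-1 and NC overlapped. The log2 fold change was -0.83 with SKP2-2 (SE 0.09, adjusted p = 3.28e-06) and 0.11 with SKP2-1 (95% interval -0.07 to 0.29, adjusted p = 0.325).

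CXCL3 (ENSG00000163734, chromosome 4, 74036589 to 74038807), the third close paralog, did not pass with SKP2-2. It was at 9.7, 9.97 and 10.1 CPM in NC, 14.8, 12.7 and 15.3 CPM with SKP2-1, and 9.1, 7.37 and 10.4 CPM with SKP2-2. The SKP2-1 libraries were above all others, and NC and SKP2-2 overlapped. CXCL3 rose with SKP2-1 (0.52, SE 0.11, adjusted p = 0.00169), and with SKP2-2 its log2 fold change was -0.15 (95% interval -0.39 to 0.10, adjusted p = 0.308). The siRNAs differed by -0.67 (SE 0.11, adjusted p = 0.000233). Near-identical copies make single values less certain: 7.07% of the 75-base stretches of CXCL2 transcripts also occur in CXCL1 or CXCL3, 4.57% of those of CXCL3 in CXCL2, and 0.25% of those of CXCL1 in CXCL2.

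CXCL5 (ENSG00000163735, chromosome 4, 73995642 to 73998779), a neutrophil attractant also known as ENA-78, was scarce. The NC libraries gave 56, 55 and 66 counts, the SKP2-1 libraries 78, 70 and 98, and the SKP2-2 libraries 11, 14 and 15. Those were 1.57, 1.22 and 1.4 CPM in NC, 1.84, 1.79 and 1.99 CPM with SKP2-1, and 0.271, 0.317 and 0.321 CPM with SKP2-2. The 3 groups did not overlap, with SKP2-2 lowest and SKP2-1 highest. CXCL5 fell with SKP2-2 by 2.18 on the log2 scale (SE 0.19, adjusted p = 7.75e-07), more in size than any other tested chemokine gene of the 10 in that comparison. Its rise with SKP2-1 was small (0.43, SE 0.15, adjusted p = 0.026). It no longer passed when NC replicate 2 was left out (0.34, adjusted p = 0.116), and likewise for NC replicate 3 (0.44, 0.0554), SKP2-1 replicate 1 (0.45, 0.0571) or SKP2-1 replicate 3 (0.39, 0.0985). It was also lost with DESeq2 (0.41, adjusted p = 0.19), with no filter (0.44, 0.0576) and with only the 2 groups fitted (0.37, 0.0738), within a range of 0.015 to 0.19 over all alternatives.

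Across the 9 libraries the log2 levels of CXCL1, CXCL2, CXCL5 and CXCL8 ran closely together, with Pearson r between 0.97 and 0.99 for their pairs. CXCL3 had r of 0.7 with CXCL1 and 0.63 with CXCL8, and its highest value among the 10 was with CCL20 (0.88). CX3CL1 had r of 0.05 with CXCL8 and 0.71 with CXCL16. These points share the steps between groups and the libraries themselves, so the values are a description.

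**Figure D3:**
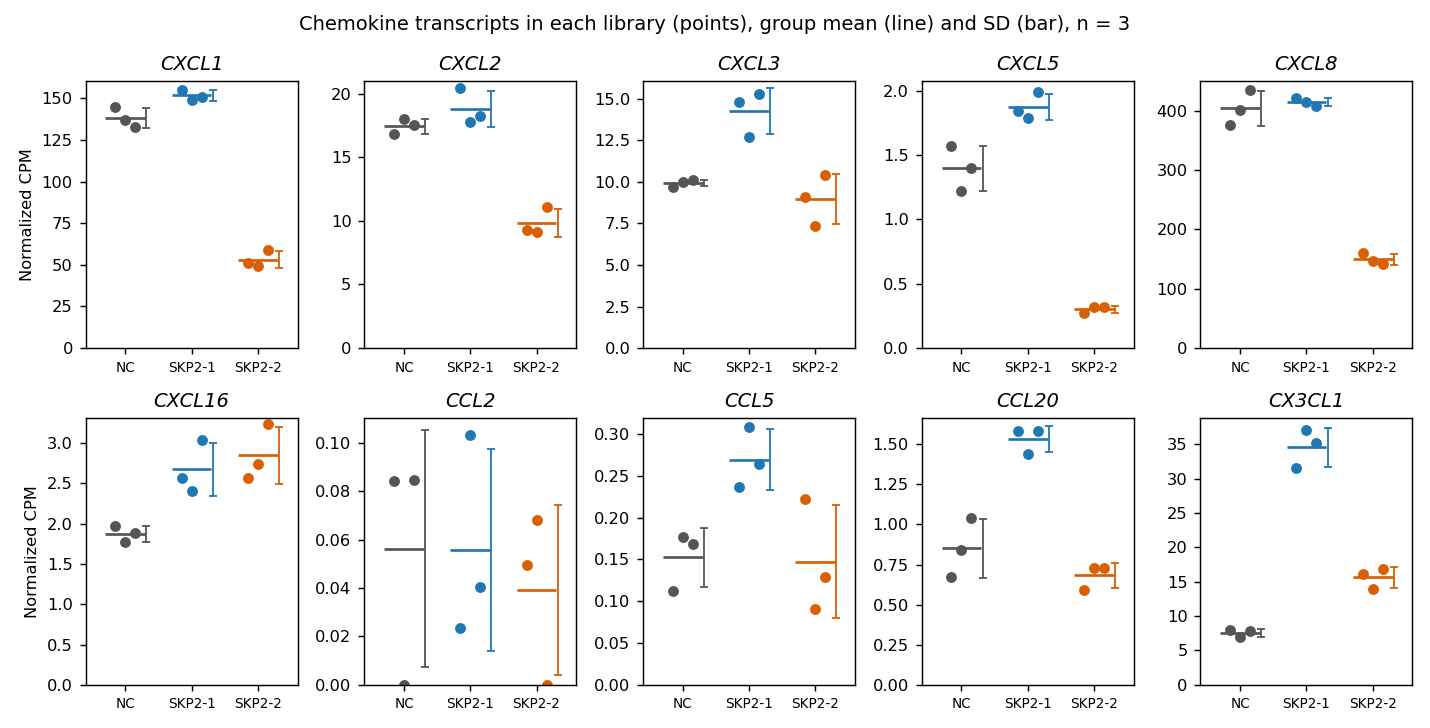
Normalized CPM (y axes from 0, each gene on its own scale) in every library of the 3 groups for the 10 chemokine genes. Points are libraries, lines group means and bars the SD (n = 3). CX3CL1 is highest with SKP2-1 (31.5 to 37 CPM), and CXCL8 lowest with SKP2-2 (142 to 160 CPM).

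CX3CL1 (ENSG00000006210, chromosome 16, 57372458 to 57385048) encodes fractalkine, a mucin-stalked membrane chemokine that acts as an adhesion molecule and, once shed, as an attractant. Its level was 7.93, 6.92 and 7.77 CPM in NC, 31.5, 37 and 35.1 CPM with SKP2-1, and 16.1, 13.9 and 16.9 CPM with SKP2-2. The 3 groups were well apart, with every knockdown library above every NC library. CX3CL1 rose by 2.20 on the log2 scale with SKP2-1 (SE 0.09, adjusted p = 9.15e-10) and by 1.05 with SKP2-2 (SE 0.09, adjusted p = 6.63e-07). The siRNAs differed as well (-1.15, SE 0.09, adjusted p = 1.75e-07). For each CXCL8 read there were 0.0172 to 0.0212 CX3CL1 reads in NC, 0.0746 to 0.0895 with SKP2-1 and 0.0943 to 0.118 with SKP2-2.

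CXCL16 (ENSG00000161921, chromosome 17, 4733526 to 4739922), the other membrane-anchored chemokine and also a scavenger receptor for oxidized lipoprotein, was low but higher with both siRNAs. It was at 1.97, 1.77 and 1.88 CPM in NC, from 70, 80 and 89 counts. With SKP2-1 it was at 2.57, 2.41 and 3.04 CPM, and with SKP2-2 at 2.56, 2.74 and 3.24 CPM. Both knockdown groups lay above NC and overlapped each other. The log2 fold change was 0.52 with SKP2-1 (SE 0.14, adjusted p = 0.00671) and 0.61 with SKP2-2 (SE 0.14, adjusted p = 0.00209), and the difference between the siRNAs was 0.09 (95% interval -0.19 to 0.37, adjusted p = 0.597). An exon of MED11, a Mediator subunit gene on the other strand, overlaps an exon of CXCL16, and the strand setting of the counting is not given in the sources used here. MED11 was at 20.1 CPM in NC, 22.1 with SKP2-1 and 21.3 with SKP2-2 (log2 fold changes 0.14 and 0.08, adjusted p = 0.0647 and 0.274), and its part in the CXCL16 result was not tested.

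CCL20 (ENSG00000115009, chromosome 2, 227805739 to 227817564), the ligand of CCR6, was read with few counts. There were 24, 38 and 49 counts in NC, 67, 56 and 78 with SKP2-1, and 24, 32 and 34 with SKP2-2. The levels were 0.675, 0.84 and 1.04 CPM in NC, 1.58, 1.44 and 1.58 CPM with SKP2-1, and 0.592, 0.726 and 0.729 CPM with SKP2-2. SKP2-1 libraries were above all others, and NC and SKP2-2 overlapped. CCL20 rose with SKP2-1 (0.83, SE 0.18, adjusted p = 0.00175), had a log2 fold change of -0.33 with SKP2-2 (95% interval -0.76 to 0.10, adjusted p = 0.192), and was 2.24 times lower with SKP2-2 than with SKP2-1 (adjusted p = 0.000148).

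CCL5 (ENSG00000271503, chromosome 17, 35871491 to 35880793), also known as RANTES, was close to the limit of detection. Its counts were 4, 8 and 8 in NC, 10, 12 and 13 with SKP2-1, and 9, 4 and 6 with SKP2-2. It passed the filter through the SKP2-1 libraries, which were the highest, and the other groups overlapped. Pooled over each group it was at 0.156 CPM in NC (exact Poisson 95% interval 0.0954 to 0.241), 0.268 with SKP2-1 (0.186 to 0.372) and 0.145 with SKP2-2 (0.0871 to 0.226). Its values against SKP2-1 are therefore a description, with a log2 fold change of 0.77 over NC (SE 0.39). Against NC, SKP2-2 gave -0.10 (SE 0.44, adjusted p = 0.871). Without CCL5, which was called in no comparison, the 8 other tested genes had a median log2 fold change of 0.48 with SKP2-1, -0.58 with SKP2-2 and -1.15 between the siRNAs, an alternative chosen after seeing the data. Of its 75-base stretches 8.21% also occur in transcripts of other genes.

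CCL2 (ENSG00000108691, chromosome 17, 34255218 to 34257203), the monocyte attractant MCP-1, was the gene that failed the filter. It had 3, 0 and 4 counts in NC, 1, 4 and 2 with SKP2-1, and 2, 3 and 0 with SKP2-2. Pooled over each group these were 0.0547 CPM in NC (exact Poisson 95% interval 0.022 to 0.113), 0.0535 with SKP2-1 (0.0215 to 0.11) and 0.0381 with SKP2-2 (0.0124 to 0.0889). The intervals cover counting error only, and no difference was detectable at this depth.

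Of 36 other chemokine genes in the files, 6 passed the filter, and the counts over such a list describe those 6 only. With SKP2-1 4 of them were higher and 0 lower (median log2 fold change 1.29), against 25.0% and 20.5% of all genes. With SKP2-2 3 were higher and 0 lower (0.57), against 25.2% and 24.1%. PF4 (7 to 18 counts a library), 1 of the 4 higher with SKP2-1, passed the filter through its SKP2-1 libraries. Its call is therefore a description, and the medians of these genes include it. CXCL11, an interferon-induced ligand of CXCR3, was at 1.05 ± 0.119 CPM in NC, 3.77 ± 0.149 with SKP2-1 and 1.64 ± 0.172 with SKP2-2 (SD, n = 3), with log2 fold changes of 1.83 and 0.62 (adjusted p = 1.36e-07 and 0.00258). CCL26, the eosinophil attractant eotaxin-3, rose by 1.80 and 0.99 (adjusted p = 1.83e-07 and 5.77e-05). CCL28, a mucosal chemokine, had a log2 fold change of 0.19 with SKP2-1 (adjusted p = 0.0757) and rose by 0.68 with SKP2-2 (adjusted p = 1.6e-05). CXCL10, a CXCR3 ligand named after its values were seen, rose by 1.75 with SKP2-1 (adjusted p = 1.24e-06) and was at -0.13 with SKP2-2 (adjusted p = 0.582). CXCL6, another ELR chemokine gene named after its values were seen, had 0 to 3 counts a library.

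Several receptors of the described ligands, chosen for naming after their counts were seen, had few or 0 counts. CXCR2, CX3CR1, CCR6 and CCR2 had 0 counts in all 9 libraries, which allows up to 0.0843 CPM in the shallowest library (3 counts; counting error only). CXCR1 and CXCR6 had 0 to 1 counts. Of 23 receptor genes 6 were tested. With SKP2-1 5 were higher, against 25.0% of all genes, and with SKP2-2 4, against 25.2%. In edgeR 0 were lower with either, against 20.5% and 24.1% (medians 0.92 and 0.62). CCR7 (6 to 22 counts a library), in the 5, passed the filter through its SKP2-1 libraries, so its call is a description. Both medians include CCR7. CXCR4, the CXCL12 receptor linked to breast cancer metastasis, rose from 14.7 ± 1.41 CPM in NC to 22.1 ± 0.931 with SKP2-1 and 20.04 ± 0.771 with SKP2-2 (log2 fold changes 0.59 and 0.45, adjusted p = 2.58e-05 and 0.000246). CCRL2, a non-signalling receptor that binds chemerin, rose by 0.76 and 0.73 (adjusted p = 5.05e-07 and 6.44e-07). CCR1, a receptor of CCL5 that was read with 18 to 124 counts and named after its values were seen, rose by 2.00 and 1.68 (adjusted p = 2.75e-06 and 1.45e-05) from 0.656 ± 0.204 CPM in NC.

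A list of 16 genes, all tested, held cytokines that signal to NF-kB (interleukin 1, TNF), the antagonist IL1RN, receptors of the interleukin 1, TNF and interleukin 17 families, and the adaptors and kinases MYD88, IRAK1, IRAK2, IRAK4 and TRAF6. With SKP2-1 11 were higher and 1 lower (median 0.34), against 25.0% and 20.5% of all genes. With SKP2-2 6 were higher and 3 lower (0.18), against 25.2% and 24.1% of all genes. Between the siRNAs 2 were higher and 9 lower (-0.30), against 25.2% and 25.3%. IL1RN (2 to 20 counts a library), in the 11 and the 9, passed the filter through its SKP2-1 libraries, so its calls are a description. The medians include IL1RN. IL1B, encoding interleukin 1 beta, was at 3.15 ± 0.249 CPM in NC, 18.8 ± 2.33 with SKP2-1 and 2.38 ± 0.43 with SKP2-2 (log2 fold changes 2.57 and -0.42, adjusted p = 3.86e-09 and 0.0234). IL1A rose by 1.72 with SKP2-1 (adjusted p = 8.61e-09) and was at -0.22 with SKP2-2 (adjusted p = 0.0884). IRAK2, a kinase-like adaptor of the interleukin 1 receptor, rose by 0.31 with SKP2-1 (adjusted p = 0.000148) and fell by 0.54 with SKP2-2 (adjusted p = 1.01e-06). IL1R1, the receptor, and MYD88, its adaptor, rose with both (0.81 and 0.31, and 0.62 and 0.30), as did the TNF receptor gene TNFRSF1A (0.22 and 0.51). IRAK1, the 1 gene lower with SKP2-1, fell from 240 ± 49.7 CPM in NC to 95.6 ± 1.88 (-1.33, edgeR adjusted p = 0.000371). With SKP2-2 IRAK1 was at 0.32 (adjusted p = 0.129).

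All 15 genes of the NF-kB subunits, inhibitors and kinases were tested. With SKP2-1 3 were higher and 6 lower (median -0.16), against 25.0% and 20.5% of all genes. With SKP2-2 4 were higher and 3 lower (0.06), near the 25.2% and 24.1% of all genes. Between the siRNAs 8 were higher and 4 lower (0.23), against 25.2% and 25.3%. REL, encoding c-Rel, fell with both (-0.81 and -0.55, adjusted p = 3.06e-07 and 9.55e-06). NFKBIA, the inhibitor I-kappa-B alpha and itself an NF-kB target, was at 0.10 with SKP2-1 (adjusted p = 0.0652) and fell by 0.29 with SKP2-2 (adjusted p = 4.78e-05). The precursor gene NFKB2 fell by 0.19 with SKP2-1 and rose by 0.18 with SKP2-2 (adjusted p = 0.0064 and 0.00914), and MAP3K14, encoding NIK, did likewise (-0.21 and 0.42, adjusted p = 0.00727 and 2.54e-05). NFKB1 fell with SKP2-1 (-0.26), and TNFAIP3, the deubiquitinase A20, rose with both (0.42 and 0.26).

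Among 10 genes of AU-rich mRNA binding and decay, 2 were higher and 2 lower with SKP2-1 (median 0.03), and 2 and 3 with SKP2-2 (-0.01). These were near the shares of all genes, 25.0% and 20.5% with SKP2-1 and 25.2% and 24.1% with SKP2-2. The decay factor gene ZFP36L2 rose from 47.3 ± 1.39 to 80.8 ± 2.56 CPM with SKP2-1 (0.77, adjusted p = 7.37e-08) and was at -0.05 with SKP2-2 (adjusted p = 0.443). ZFP36L1, its paralog, rose with both (0.38 and 0.46), and ELAVL1, encoding the stabilizing protein HuR, fell with both (-0.41 and -0.25). HNRNPD, of the same list, also fell with both (-0.50 and -0.16, edgeR adjusted p = 9.19e-06 and 0.0336). Of 8 tested genes of enzymes that shed or trim chemokines, 6 were higher with SKP2-1, against 25.0% of all genes, and 4 with SKP2-2, against 25.2%. In edgeR 0 were lower, against 20.5% and 24.1% (medians 0.57 and 0.50). MMP9 (1 to 17 counts a library), in the 6, passed the filter through its SKP2-1 libraries, so its call is a description. Both medians include MMP9. MMP1 rose by 2.63 with SKP2-1 (edgeR adjusted p = 4.47e-11) and was at -0.14 with SKP2-2 (adjusted p = 0.129). MMP14 rose with both (0.92 and 0.52, adjusted p = 6.08e-08 and 1.09e-05). ADAM17, which sheds CX3CL1, rose with both (0.37 and 0.26, adjusted p = 1.86e-05 and 0.000325). ADAM10, which releases CX3CL1 and CXCL16 constitutively, rose by 0.16 with SKP2-1 (adjusted p = 0.0118) and was at 0.05 with SKP2-2 (adjusted p = 0.405).

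**Figure D4:**
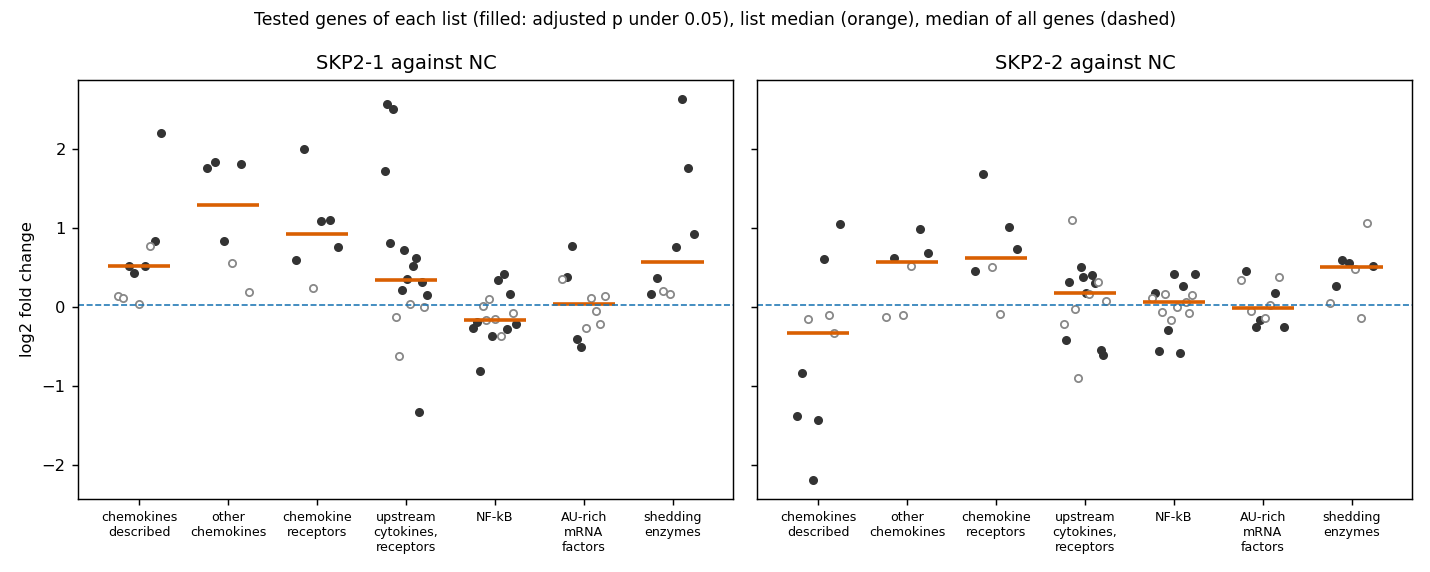
Log2 fold change against NC (y axis) of the tested genes of each list, with filled points past the threshold, orange lines for list medians and a dashed line for the median of all genes. With SKP2-2 the described chemokine genes have a median of -0.33, while the other chemokine genes and the receptors have medians of 0.57 and 0.62.

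Markers of other cell types moved beside these genes. The summed level of 13 immune cell markers was 3.12 to 3.96 CPM in NC, 6.25 to 6.99 with SKP2-1 and 5.38 to 5.83 with SKP2-2, and 4 of 4 tested members were higher with SKP2-1 and 3 with SKP2-2, against 25.0% and 25.2% of all genes. ITGAM (5 to 26 counts a library), among those called, passed the filter through its SKP2-1 and SKP2-2 libraries, so its calls are a description. PTPRC (17 to 49 counts a library) rose by 1.32 on the log2 scale with SKP2-1 and by 1.02 with SKP2-2. CD14 (40 to 118 counts) rose by 1.09 and 0.98. LYZ (57 to 143 counts) rose by 0.73 with SKP2-1 and was at 0.23 with SKP2-2 (edgeR adjusted p = 0.227). MS4A1 and TYROBP had 0 counts in all libraries, and CD3E had 0 to 1. The 8 endothelial markers summed to 140 to 163, 155 to 161 and 212 to 226 CPM, of which ESAM alone gave means of 140, 134 and 206 CPM. Of 4 tested, 3 were higher with SKP2-1, against 25.0% of all genes (PECAM1 by 1.21, KDR by 1.04 and TIE1 by 0.51 on the log2 scale). With SKP2-2 2 were higher, against 25.2% (ESAM by 0.56 and KDR by 0.43). CLDN5 was at 0 counts throughout and CDH5 at 0 to 4. The 7 fibroblast markers summed to 26 to 41.1, 25.6 to 28.8 and 14.5 to 19.5 CPM, of which COL1A1 gave means of 23.6, 16 and 8.79 CPM. Of 4 tested, 2 were higher with SKP2-1, against 25.0% of all genes (LUM by 0.47 and PDGFRB by 0.41). With SKP2-2 LUM rose by 0.69 and COL1A1 fell by 1.41. That was 1 higher and 1 lower, near the 25.2% and 24.1% of all genes. DCN was at 0 to 2 counts. The marker genes with values were named after these were seen. Their part in the chemokine results was not tested.

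The genes most like CXCL8 over the 9 libraries, among 12129 other genes of at least 2 CPM, were ZMYND11 (Pearson r = 0.999), BTBD3 (0.998) and WDR82 (0.998). For CXCL1 they were ZFAND4, FAM174A and BCL7A (0.996 each), and for CXCL2 TP53RK (0.993), ZFAND4 (0.989) and HS3ST3B1 (0.989). CXCL3 was most like PHF12 (0.973), SYAP1 (0.97) and NR1D1 (0.964). For CX3CL1 they were CRTAM (0.993), PTPN22 (0.993) and ISM1 (0.992), and for CXCL16 TMEM70 (0.969), DALRD3 (0.965) and S100A11 (0.964). With 3 groups of 3, these points share the steps between groups. No other chemokine gene was among the 3 most like any of these 6. CXCL5, CCL20, CCL5 and CXCL10, with means under 2 CPM, were not ranked, and CXCL5 had r of 0.99 with CXCL1.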

How the data were processed

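Raw read counts per Ensembl gene were deposited by the authors, 1 file a library. Tools are listed without settings: per the submitters' processing notes, HTSeq 0.6.1, STAR, DESeq2 1.16.1, FastQC 0.11.2 and Trim Galore 0.4.1 were used. The genome build, annotation and strand setting are not given in the sources used here. Summary lines that name no gene (no_feature 5.34% to 5.92%, ambiguous 3.87% to 3.97% of all reads in the files) were left out of library sizes. Of 58395 identifiers, 57754 took a symbol from the supplied table and 521 from GENCODE 29.

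Genes were kept with filterByExpr (minimum count 10, minimum total 15), which left 16575. edgeR 4.0.16 in R 4.3.3 fitted TMM-scaled counts by a robust quasi-likelihood model in which group was the sole term, using the 9 libraries together. Two-sided F tests were adjusted by Benjamini-Hochberg over all genes tested, with a threshold of 0.05. The SE of a log2 fold change was taken as its size over the root of its F statistic. The fit was tested on simulated data. The alternatives tried were DESeq2 1.42.0, size factors by RLE, unscaled library sizes, a filter of 1 CPM in 3 libraries or none, fits of the 2 groups alone, a replicate block, each library left out, and NC replicate 1 and SKP2-2 replicate 3 left out together.

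The members and the gene lists were chosen with earlier results of these data known. From other lists, genes of at least 2 CPM that passed in a comparison could be named, up to 6 a list by smallest adjusted p. PF4, IL1RN, CCR7 and MMP9, all below that level, were named after their values were seen, as was IRAK1, outside the first 6 of its list. The 3 genes of highest Pearson r were named as most like each member of at least 2 CPM. Promoter sequences are from RefSeq (GRCh38.p14; 6 of 10 members matched), and gene positions from GENCODE 29 on GRCh38, matched by identifier.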

Additional observations from a re-analysis of the deposited data

Results flagged for a closer look

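CXCL5 was called in opposite directions against the same NC libraries, higher with SKP2-1 and lower with SKP2-2, and the test between the siRNAs gave a log2 difference of -2.61 (SE 0.18, edgeR adjusted p = 8.59e-08). All 3 SKP2-2 libraries (0.271 to 0.321 CPM) lay under all 3 SKP2-1 libraries (1.79 to 1.99 CPM). The rise with SKP2-1 was lost in 7 of 17 alternatives.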

How the results depend on the processing

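The counts of called chemokine genes kept within 1.5 times of the reported ones in all 17 alternatives. With SKP2-1 4 to 6 were higher and 0 lower, with SKP2-2 2 higher and 4 lower, and between the siRNAs 7 to 8 were lower and 0 higher. All genes called numbered 6429 to 8755, 7190 to 9149 and 7160 to 9414 in the 3 comparisons. Values that changed sign had not passed in any fit. CXCL8 with SKP2-1 was -0.03 with only the 2 groups fitted, -0.02 without both NC replicate 1 and SKP2-2 replicate 3, and -0.02 to 0.10 with single libraries left out. CCL5 with SKP2-2 was -0.53 to 0.14 with single libraries left out, and CXCL16 between the siRNAs was -0.02 to 0.19, with a value of -0.0041 without both libraries. With only the 2 groups fitted, 44% of the genes called with SKP2-1 were higher, against 55% with all 9 libraries.

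Replicate numbers did not pair the libraries: deviations from group means correlated at -0.5 to 0.05 over the 9 same-numbered pairs. Over differently numbered pairs the range was -0.2 to 0.5. The highest were NC replicate 1 with SKP2-2 replicate 3 (0.5) and NC replicate 3 with SKP2-2 replicate 1 (0.45). A block by replicate number does not model that sharing. With the replicate block, all genes called numbered 6818, 7501 and 7500, and the counts of chemokine genes were 5 higher with SKP2-1, 2 higher and 4 lower with SKP2-2, and 7 lower between the siRNAs. Depth limits CCL2 and CCL5, with at most 4 and 13 counts a library.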
